A study of Mus musculus with 4 samples.

Results

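The genes examined here encode proteins that absorb fat and retinol and build or decorate the brush border of the small intestine. They are the apolipoproteins Apoa1, Apoa4 and Apob, the cytoplasmic binding proteins Fabp1, Fabp2 and Rbp2, the brush border hydrolases Alpi, Sis and Lct, and the microvillus protein Vil1. They were chosen by function, as the rows of the deposited expression table that carry these 10 symbols, and all 10 were found among the 18436 genes of the table. RNA was sequenced from sorted Lgr5-GFPhigh cells of 2 Lgr5-CREPTWT and 2 Lgr5-CREPTKO mice. All 4 mice carried Lgr5-EGFP-IRES-creERT2, in which the Lgr5 gene drives GFP and a tamoxifen-inducible Cre recombinase, and all 4 received tamoxifen by intraperitoneal injection at 1 mg a day for 5 days, with the cells sorted on day 7. The Lgr5-CREPTKO mice also carried CREPT fl/fl, so that CREPT (gene symbol Rprd1b) was deleted in Lgr5-expressing cells and their progeny, and the Lgr5-CREPTWT mice served as the control. The floxed allele and its deletion were present in the same mice and cannot be told apart. The study's mice were of the C57BL/6 background and 6 to 8 weeks old, and GFP in this strain marks only part of the crypts of an adult intestine.

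Enterocytes take up fatty acids and monoglycerides at the brush border, carry them through the cytoplasm on fatty acid binding proteins, rebuild triglycerides in the endoplasmic reticulum and export them on Apob-containing chylomicrons. Their apical membrane is folded into microvilli, whose actin bundles are crosslinked by villin, and it carries the enzymes that split disaccharides, peptides and phosphate esters. Lgr5-expressing cells at the crypt base are the stem cells from which enterocytes arise, and the absorptive programme is known to increase as cells leave the crypt for the villus.

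Expression was measured in FPKM (the fragments on a gene, scaled to the kilobases of its transcript and to the mapped fragments of its library). This unit corrects for transcript length and for the total of each library. The FPKM values of a library summed to between 468830 and 499327, and read counts were not used here. From the value that a single read gives to short genes, the libraries were within a few percent of each other in relative depth, between 0.967 and 1.01 of Lgr5-CREPTWT mouse 1. Rprd1b, the targeted gene, was 17.69 and 18.09 FPKM in the Lgr5-CREPTWT mice and 6.65 and 7.36 FPKM in the Lgr5-CREPTKO mice. The defining stem cell marker Lgr5 was 47.67 and 37.70 FPKM in the Lgr5-CREPTWT mice. It was 52.04 and 60.10 FPKM in the Lgr5-CREPTKO mice, so it was detected in all 4. No library of unsorted or GFP-negative cells was included, so enrichment by the sort could not be measured. All 6 stem cell markers of the list had both Lgr5-CREPTKO mice above both Lgr5-CREPTWT mice, a pattern that 25.6% of all genes tested had.

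The absorption genes were present in the RNA of the sorted Lgr5-GFPhigh cells over a wide range of levels. Averaged over the 4 mice, the order in FPKM was Vil1 (139.6), Fabp2 (118.4), Fabp1 (75.96), Rbp2 (72.3), Apoa1 (65.9), Apoa4 (32.2), Apob (26.2), Sis (17.4), Alpi (15.52) and Lct (4.49). Among the 12621 genes that averaged 0.5 FPKM or more, which were the genes tested, Vil1 stood at percentile 96.3 of mean level and Lct at percentile 26.5, and all 10 genes were in this set. The 4 values of a gene overlapped those of the next gene in the order for every pair of neighbours except Alpi and Lct, where Alpi was higher in 4 of 4 mice. Fabp2, the intestinal fatty acid binding protein, was above Fabp1, the liver type that enterocytes also make, within each of the 4 mice. Apoa1 was likewise above Apoa4 in each of the 4 mice, whereas Sis was above Alpi in 2 of 4.

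**Figure D1:**
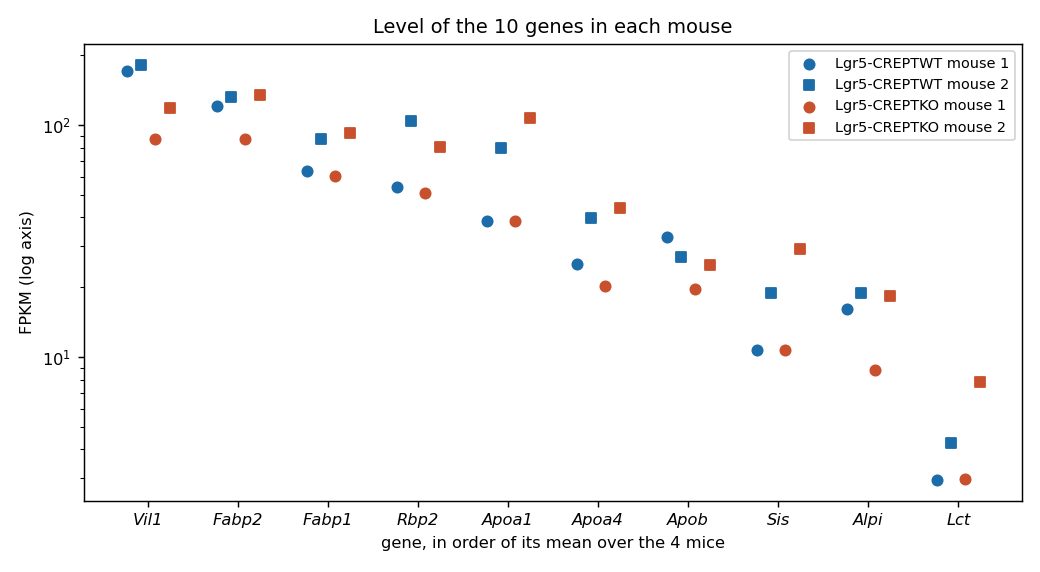
FPKM of the 10 absorption and brush border genes in each mouse, on a log axis, with genes ordered by their mean over the 4 mice. Each point is 1 mouse (blue for Lgr5-CREPTWT, orange for Lgr5-CREPTKO; circles for mouse 1, squares for mouse 2), levels run from 182.07 FPKM for Vil1 to 2.95 FPKM for Lct, and the genotypes overlap for 8 of the 10 genes.

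For 8 of the 10 genes, mice of the same genotype differed enough for the genotypes to overlap. In the Lgr5-CREPTKO mice, mouse 2 was above mouse 1 for 10 of 10 genes, which 53.4% of all genes tested showed. In the Lgr5-CREPTWT mice, mouse 2 was above mouse 1 for 9 of 10, with a background of 49.6%, and the exception was Apob. Both held together for 9 of 10 genes against 26.2% of all genes tested. The median log2 difference of mouse 2 minus mouse 1 over the 10 genes was 0.46 in Lgr5-CREPTWT and 0.84 in Lgr5-CREPTKO cells, where the medians over all genes tested were 0.00 and 0.02. The numbers 1 and 2 come from the sample titles, which do not say whether same-numbered mice of the 2 genotypes were linked.

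The ratio of mouse 2 to mouse 1 differed among the genes. In Lgr5-CREPTKO cells it was largest for Apoa1, at 2.78, followed by Sis at 2.71, Lct at 2.62, Apoa4 at 2.16 and Alpi at 2.09. It was smallest for Apob, at 1.26, and for Vil1, at 1.36. In Lgr5-CREPTWT cells it was largest for Apoa1, at 2.06, and Rbp2, at 1.94, and it was 1.07 for Vil1 and 0.817 for Apob. The summed level of the 10 genes was 535.3 and 693.2 FPKM in the Lgr5-CREPTWT mice and 386.2 and 657.7 FPKM in the Lgr5-CREPTKO mice, or 0.108%, 0.139%, 0.0824% and 0.139% of the library totals in the same order. The lowest sum was thus that of Lgr5-CREPTKO mouse 1, in which 8 of the 10 genes had their lowest value (29.3% of all genes tested had theirs there). In Lgr5-CREPTKO mouse 2, 6 of the 10 had their highest value (24.9% of all genes tested).

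**Figure D2:**
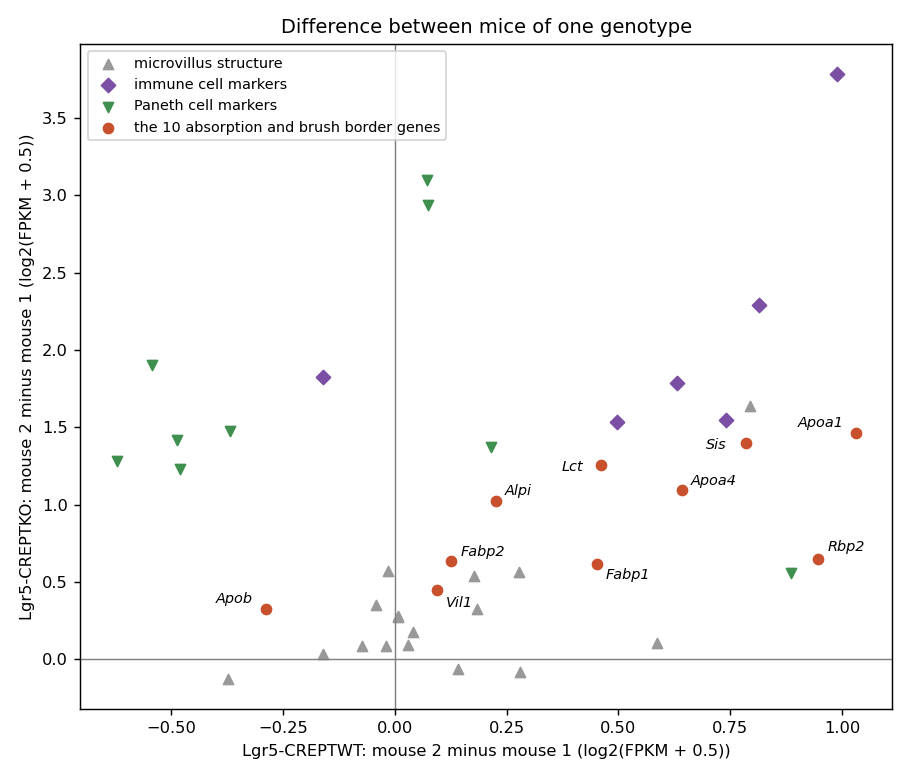
Log2 difference of mouse 2 minus mouse 1 within Lgr5-CREPTWT (horizontal axis) and within Lgr5-CREPTKO (vertical axis), on the log2(FPKM + 0.5) scale, with 1 point per gene for the 10 absorption and brush border genes (orange, labelled) and the tested genes of the microvillus, immune cell and Paneth cell lists. Of the 10 genes, 9 lie above 0 on both axes, and Apob lies below 0 on the Lgr5-CREPTWT axis.

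Markers of other cells also differed between the same mice, not all in the same direction. The 8 immune cell markers summed to 14.51 and 27.23 FPKM in the Lgr5-CREPTWT mice and to 3.46 and 46.46 FPKM in the Lgr5-CREPTKO mice. All 6 of them that passed the filter were lowest in Lgr5-CREPTKO mouse 1 and highest in Lgr5-CREPTKO mouse 2. Gzma, a granule protease of cytotoxic lymphocytes, held most of this sum, at 10.33 and 20.98 FPKM in Lgr5-CREPTWT and 2.09 and 35.14 FPKM in Lgr5-CREPTKO cells. Cd79a, a subunit of the B cell receptor, was at or below 0.43 FPKM in every mouse. The 9 Paneth cell markers summed to 1480 and 1096 FPKM in Lgr5-CREPTWT and to 873.2 and 2785 FPKM in Lgr5-CREPTKO cells, and 7 of the 9 were lowest in mouse 1 and 7 of the 9 highest in mouse 2 of Lgr5-CREPTKO. The tuft cell markers went the other way in Lgr5-CREPTKO cells, with sums of 18.39 and 40.42 FPKM in the Lgr5-CREPTWT and 16.73 and 6.51 FPKM in the Lgr5-CREPTKO mice, and mouse 2 was above mouse 1 for 5 of the 5 tested in Lgr5-CREPTWT and 0 of 5 in Lgr5-CREPTKO. The 7 goblet cell markers summed to 1465 and 2441 FPKM in Lgr5-CREPTWT and 802.3 and 935.8 FPKM in Lgr5-CREPTKO cells, with mouse 2 the higher for 7 and 5 of the 7. The 8 enteroendocrine markers summed to 181.7 and 266.1 FPKM in Lgr5-CREPTWT and 68.8 and 77.5 FPKM in Lgr5-CREPTKO cells, with mouse 2 the higher for 7 and 5 of the 8. The 7 stromal and endothelial markers were near 0, with sums between 0.24 and 0.65 FPKM, and Acta2 was listed at 0 in both Lgr5-CREPTKO mice. The part of these other cells in the difference between mice was not tested. RNA was taken from many cells at once, so a smaller number of absorptive cells in the sort and less of these transcripts in each cell cannot be told apart.

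Between the genotypes, none of the 10 genes passed the threshold, an adjusted p below 0.05 with an absolute log2 fold change above 1 by limma's moderated test with Benjamini-Hochberg adjustment over all 12621 genes. At that threshold, 1.01% of all genes tested were called lower and 0.127% higher in Lgr5-CREPTKO cells. At an adjusted p below 0.05 alone the count was again 0 of 10, against 2.67% lower and 0.412% higher of all genes tested. At an unadjusted p below 0.05, 2 of the 10 genes were lower, Vil1 and Apob, and 0 were higher, against 15.2% and 9.27% of all genes tested. The same 2 genes were those whose Lgr5-CREPTKO values both lay below both Lgr5-CREPTWT values, a pattern of 31.0% of all genes tested, and the other 8 overlapped, as did 43.4% of all genes tested. The median log2 fold change of the 10 genes was -0.15, beside -0.01 over all genes tested, with 6 negative and 4 positive values. With 2 mice in each genotype, the smallest two-sided p that an exact permutation test allows is 0.333, and the p-values given here therefore depend on the variance pooled over genes by limma.

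**Figure D3:**
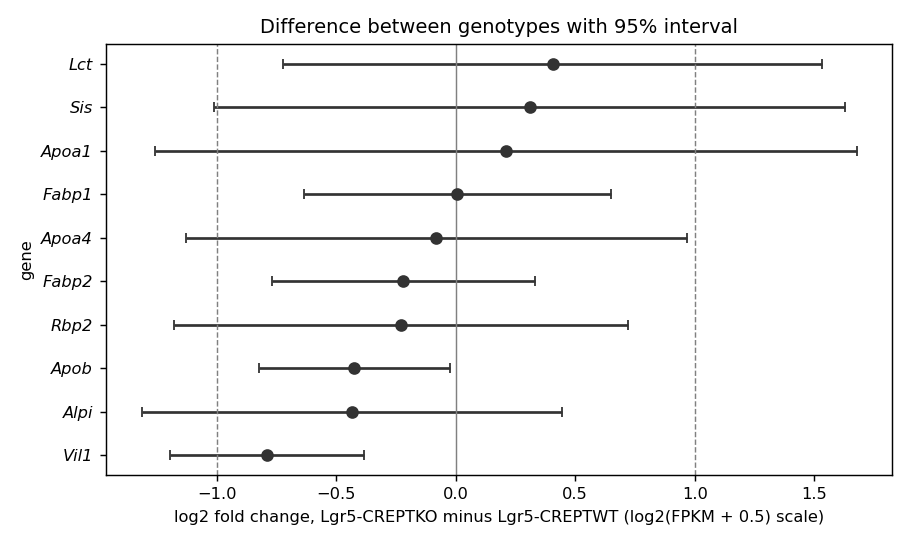
Log2 fold change of Lgr5-CREPTKO over Lgr5-CREPTWT cells for each of the 10 genes (points), on the log2(FPKM + 0.5) scale, with bars for the 95% interval from limma and dashed lines at the fold change threshold of 1 in each direction. The intervals of Vil1 and Apob lie below 0, those of the other 8 genes include 0, and none of the 10 genes passed the threshold after adjustment.

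Vil1 encodes villin, which bundles the actin of the microvillus core, and its gene occupies chr1:74409384-74435560 (plus strand, GRCm38.p6). Its values were 170.57 and 182.07 FPKM in the Lgr5-CREPTWT mice and 87.12 and 118.83 FPKM in the Lgr5-CREPTKO mice. Both Lgr5-CREPTKO mice were thus below both controls, with a gap wider than the difference within either genotype. The means were 176 ± 8.13 and 103 ± 22.4 FPKM (SD, n = 2), a ratio of 0.584. The log2 fold change was -0.79 (standard error 0.157, 95% interval -1.19 to -0.38), with an adjusted p of 0.0689 from limma's moderated test, so it did not pass. Over the 14 alternative settings its log2 fold change was negative in each, and its adjusted p ran from 0.0505 to 0.348.

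Of the apolipoproteins, Apob, the large structural protein that each chylomicron is built on, is encoded at chr12:7977629-8016839 (plus strand). It was 33.08 and 27.01 FPKM in Lgr5-CREPTWT and 19.72 and 24.88 FPKM in Lgr5-CREPTKO mice. The groups did not overlap, but the gap between the nearest mice was smaller than the difference within either genotype. Its log2 fold change was -0.42 (standard error 0.155, 95% interval -0.82 to -0.03), with an adjusted p of 0.185. Apobec1, the deaminase that edits the Apob transcript, was 2.42 and 4.48 FPKM in Lgr5-CREPTWT and 0.93 and 1.76 FPKM in Lgr5-CREPTKO mice, with a log2 fold change of -1.08 and an adjusted p of 0.152 by the same test.

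Apoa1, the main protein of high density lipoprotein, and Apoa4, an apolipoprotein of chylomicrons, lie in a cluster on chromosome 9 with Apoc3 between them. Apoa1 is at chr9:46228630-46230469 and Apoa4 at chr9:46240844-46243458, both on the plus strand, so that the pair spans 14.8 kb. Apoa1 was 38.68 and 79.49 FPKM in Lgr5-CREPTWT and 38.48 and 107.05 FPKM in Lgr5-CREPTKO mice. Its lower values were almost equal in the genotypes, and its log2 fold change was 0.21 with an interval from -1.26 to 1.68. Apoa4 was 25.22 and 39.64 FPKM in Lgr5-CREPTWT and 20.28 and 43.85 FPKM in Lgr5-CREPTKO mice, so that the Lgr5-CREPTKO values lay on both sides of the controls. Its log2 fold change was -0.08, with an interval from -1.13 to 0.97. Apoc3, an inhibitor of triglyceride clearance, was 8.25 and 11.35 FPKM in Lgr5-CREPTWT and 8.73 and 14.24 FPKM in Lgr5-CREPTKO mice, and mouse 2 was the higher in each genotype for Apoa1, Apoa4 and Apoc3. Apoa5, the next gene past Apoa4, was under the filter, at 0.33 and 0.23 FPKM in Lgr5-CREPTWT and 0.21 and 0.44 FPKM in Lgr5-CREPTKO mice, with mouse 2 the lower in Lgr5-CREPTWT. Apoc3 and Apoa5 were chosen for their position after their values were seen.

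The binding proteins carry lipids through the cytoplasm of the enterocyte. Fabp1 (chr6:71199879-71205034, plus strand) was 63.61 and 87.14 FPKM in Lgr5-CREPTWT and 60.40 and 92.69 FPKM in Lgr5-CREPTKO mice. Fabp2 (chr3:122895072-122899506, plus strand) was 120.55 and 131.61 FPKM in Lgr5-CREPTWT and 86.74 and 134.85 FPKM in Lgr5-CREPTKO mice. For both fatty acid binding proteins the Lgr5-CREPTKO values enclosed the controls. The log2 fold change of Fabp1 was 0.01, with an interval from -0.63 to 0.65, and that of Fabp2 was -0.22, with an interval from -0.77 to 0.33. Rbp2, which binds retinol and retinal in enterocytes, is at chr9:98490537-98509771 on the plus strand. It was 53.87 and 104.29 FPKM in Lgr5-CREPTWT and 50.91 and 80.23 FPKM in Lgr5-CREPTKO mice. Its Lgr5-CREPTWT mice differed more than those of Fabp1 and Fabp2, and its log2 fold change of -0.23 had an interval from -1.18 to 0.72.

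The hydrolases were the least abundant. Sis encodes sucrase-isomaltase, which splits sucrose and branched sugars, and is at chr3:72888557-72967863 on the minus strand. Sis was 10.73 and 18.85 FPKM in Lgr5-CREPTWT and 10.75 and 29.14 FPKM in Lgr5-CREPTKO mice. Lct encodes lactase (chr1:128284756-128328318, minus strand), and it was 2.95 and 4.25 FPKM in Lgr5-CREPTWT and 2.97 and 7.78 FPKM in Lgr5-CREPTKO mice. For both disaccharidases, mouse 1 of each genotype was at nearly the same level and Lgr5-CREPTKO mouse 2 was the highest of the 4. Their log2 fold changes were 0.31 (interval -1.01 to 1.63) and 0.41 (interval -0.72 to 1.53). Alpi, intestinal alkaline phosphatase, which removes phosphate from bacterial lipopolysaccharide, is at chr1:87098002-87101606 on the minus strand. Alpi was 16.05 and 18.86 FPKM in Lgr5-CREPTWT and 8.78 and 18.39 FPKM in Lgr5-CREPTKO mice, so that only Lgr5-CREPTKO mouse 1 was outside the range of the controls, on the low side. Its log2 fold change was -0.44, with an interval from -1.31 to 0.44. Of the 50-base words of the Alpi transcripts, 2.40% also occurred in other genes, mostly in the related phosphatase Akp3, so a small share of its reads could have been divided between them.

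The sign of 8 of the 10 differences depended on which mice were compared. With Lgr5-CREPTKO mouse 2 left out, 10 of the 10 log2 fold changes were negative, and with Lgr5-CREPTKO mouse 1 left out, 2 were, those of Vil1 and Apob. With Lgr5-CREPTWT mouse 1 left out, 9 were negative, and with Lgr5-CREPTWT mouse 2 left out, 4. The median over the 10 genes went from -0.54 without Lgr5-CREPTKO mouse 2 to 0.24 without Lgr5-CREPTWT mouse 2. The genotype concerned then held 1 mouse, which was assumed to vary like the others.

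The stretches of upstream sequence that the absorption genes share are shown because 4 of the 10 hold the same letters, a core of the element bound by HNF4 nuclear receptors, which are known regulators of enterocyte genes. The letters CAAAGTNCA were searched on both strands in the 250 bases before the annotated start of each gene, in RefSeq promoters of GRCm38.p6, where all 10 genes were matched. They were found in Alpi, Apoa4, Fabp2 and Rbp2, and in 1.19% of the 32851 promoters of the same length. The motifs were chosen after the sequences and the expression values had been seen. Each sequence is given 5′ to 3′ on the strand of its gene, with the match in capitals.
Alpi, chr1:87101607-87101650, minus strand: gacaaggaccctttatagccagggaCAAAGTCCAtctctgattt
Apoa4, chr9:46240637-46240695, plus strand: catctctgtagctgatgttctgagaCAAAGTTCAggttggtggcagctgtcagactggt
Fabp2, chr3:122894910-122894968, plus strand: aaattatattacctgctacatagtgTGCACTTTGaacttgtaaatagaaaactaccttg
Rbp2, chr9:98490411-98490469, plus strand: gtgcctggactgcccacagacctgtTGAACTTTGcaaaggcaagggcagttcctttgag

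The match lies 19 bases before the start in Alpi, 101 in Rbp2, 137 in Fabp2 and 182 in Apoa4, in the forward direction in Alpi and Apoa4 and reversed in the other two. The CDX letters TTTATNG were in 6 of the 10 promoters (Alpi, Apob, Fabp1, Fabp2, Rbp2 and Sis) and in 9.81% of all, and in Alpi, Apob and Rbp2 a match shared bases with a TATA box. TATAAA itself was in 5 of the 10 and in 12.37% of all. The GATA letters AGATAA were in Lct and Rbp2 and in 9.99% of all. The log2 fold changes of the 4 genes with the HNF4 letters ran from -0.44 in Alpi to -0.08 in Apoa4, and the genotypes overlapped for each. Those of the genes without the letters ran from -0.79 in Vil1 to 0.41 in Lct. A match is a run of letters and not a measured binding site.

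Transcription factors of enterocytes were measured in the same cells. Hnf4a was 312.17 and 303.60 FPKM in Lgr5-CREPTWT and 361.62 and 346.54 FPKM in Lgr5-CREPTKO mice, with a log2 fold change of 0.20 and an adjusted p of 0.166 by limma's moderated test. Both Lgr5-CREPTKO mice were above the controls. Creb3l3, a membrane-bound factor that acts on apolipoprotein genes, was 5.97 and 7.58 FPKM in Lgr5-CREPTWT and 3.51 and 4.89 FPKM in Lgr5-CREPTKO mice, with a log2 fold change of -0.64 and an adjusted p of 0.142. Elf3, an epithelial ETS factor and the most abundant of the list, was 368.37 and 399.98 FPKM against 411.52 and 360.10 FPKM, and its log2 fold change was 0.00. Of the 17 enterocyte transcription factors, 16 were tested and 0 passed the threshold, with 10 positive and 6 negative log2 fold changes and a median of 0.07. At an unadjusted p below 0.05, 2 of the 16 were lower and 2 higher, near the shares of all genes tested, 15.2% and 9.27%. Lgr5-CREPTKO mouse 1 was the lowest of the 4 mice for 2 of the 16, unlike the 8 of 10 absorption genes, and that difference in counts was not tested.

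The other genes of the absorptive programme were taken from 4 lists: fat absorption and chylomicron assembly, brush border hydrolases, nutrient and ion transporters, and microvillus structure. They hold 77 genes, all with a row in the table, of which 71 passed the filter. None of the 71 had an adjusted p below 0.05. With an unadjusted p below 0.05 there were 6 lower and 8 higher genes of the 71 in Lgr5-CREPTKO cells, where all genes tested gave 15.2% and 9.27%, and the median log2 fold change was 0.04, with 34 negative and 37 positive values. The genotypes overlapped for 48 of the 71 (43.4% of all genes tested), with 9 genes lower (31.0%) and 14 higher (25.6%) in both Lgr5-CREPTKO mice than in both controls. In the Lgr5-CREPTKO mice, mouse 2 was above mouse 1 for 61 of the 71 (53.4% of all genes tested), and in the Lgr5-CREPTWT mice for 49 (49.6%).

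**Figure D4:**
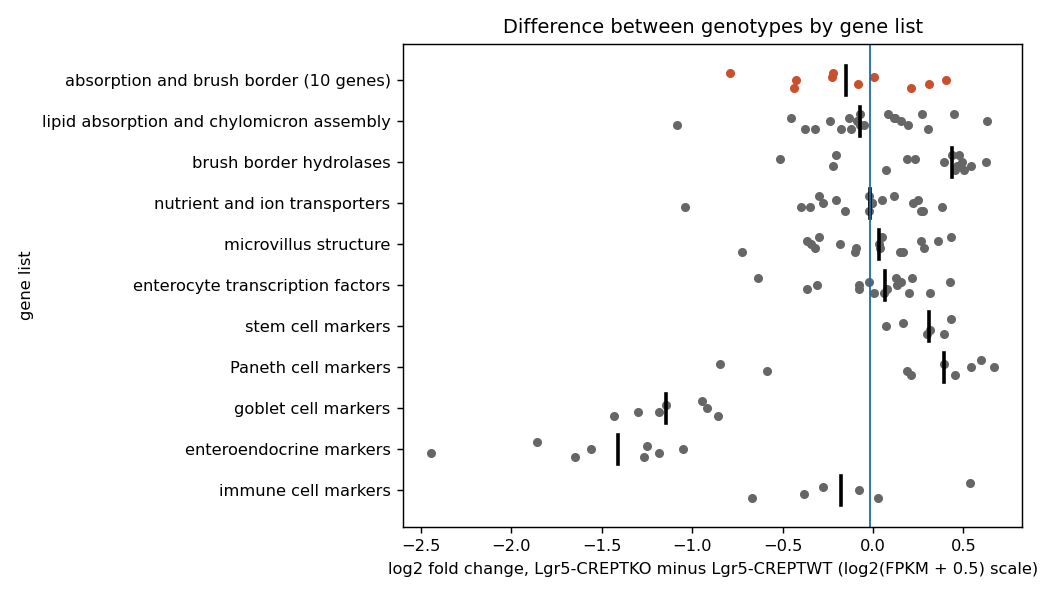
Log2 fold change of Lgr5-CREPTKO over Lgr5-CREPTWT cells, on the log2(FPKM + 0.5) scale, for each tested gene of 11 lists, with 1 point per gene, a black bar at the median of each list and a blue line at the median of all genes tested (-0.01). The absorption and brush border genes centre on -0.15 and the 4 related lists between -0.07 and 0.44, while the goblet and enteroendocrine lists centre on -1.14 and -1.41.

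In the microvillus list, the genes measured beside Vil1 lay on both sides of 0. Espn, another actin bundling protein, was 4.34 and 6.77 FPKM in Lgr5-CREPTWT and 2.96 and 3.22 FPKM in Lgr5-CREPTKO mice, both below the controls, with a log2 fold change of -0.73 and an adjusted p of 0.137 from limma. Myo1a, the myosin that ties the actin core to the apical membrane, was 108.90 and 111.27 FPKM in Lgr5-CREPTWT and 137.16 and 146.27 FPKM in Lgr5-CREPTKO mice. Both Lgr5-CREPTKO mice were above the controls, with a log2 fold change of 0.36 and an adjusted p of 0.0657. Myo1d, a related myosin, was 44.84 and 49.51 FPKM against 65.26 and 62.39 FPKM, for a log2 fold change of 0.43 and an adjusted p of 0.0638. Ush1c, a scaffold of the links between microvillus tips, was 68.25 and 64.82 FPKM against 77.51 and 82.43 FPKM, for a log2 fold change of 0.26 and an adjusted p of 0.120. None of these values passed, and Myo1a and Myo1d had adjusted p below 0.05 in some of the alternative settings given in the closing section. The ratio of Vil1 to Myo1a within each mouse was 1.57 and 1.64 in the Lgr5-CREPTWT mice and 0.635 and 0.812 in the Lgr5-CREPTKO mice. Vil1 was thus the more abundant of the pair in the controls and the less abundant in both Lgr5-CREPTKO mice. As Vil1 was lower and Myo1a higher in both Lgr5-CREPTKO mice, a lower ratio there is not a separate result. The ratio of Vil1 to Espn overlapped, at 39.3 and 26.9 in Lgr5-CREPTWT and 29.4 and 36.9 in Lgr5-CREPTKO mice. Of the 17 microvillus genes tested, 8 were negative and 9 positive, and the median was 0.04. An unadjusted p below 0.05 was reached by 2 lower and 4 higher genes of the 17, beside 15.2% and 9.27% of all genes tested.

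**Figure D5:**
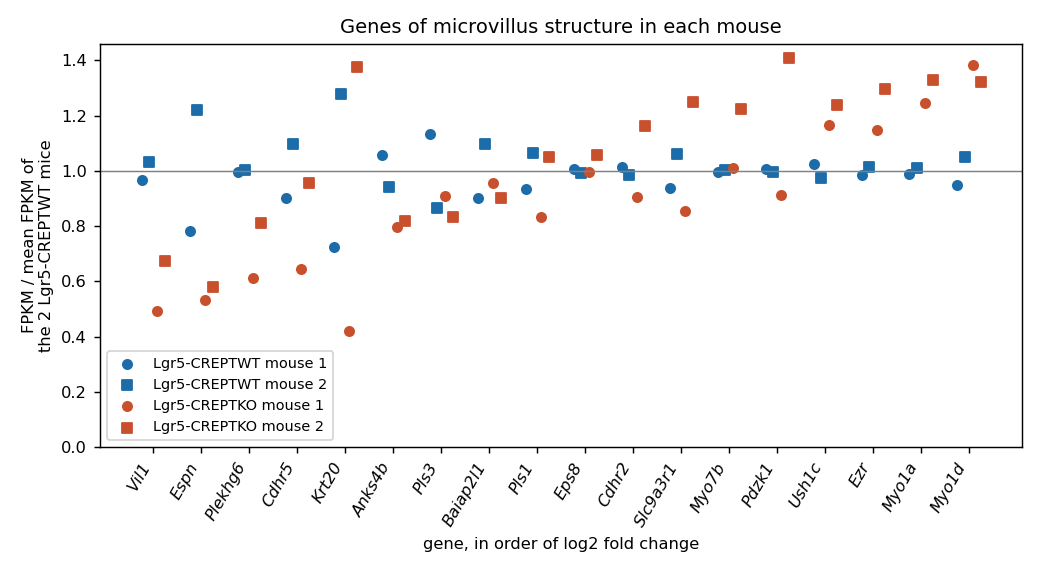
FPKM of Vil1 and of each microvillus gene tested in each mouse, divided by the mean of the 2 Lgr5-CREPTWT mice, with genes ordered by log2 fold change and 1 point per mouse (blue for Lgr5-CREPTWT, orange for Lgr5-CREPTKO). Vil1 and Espn lie below 1 in both Lgr5-CREPTKO mice, and Myo1a, Myo1d and Ush1c lie above 1 in both.

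Among the brush border hydrolases, 12 of the 15 genes tested had a positive log2 fold change (6016 of all 12621 genes tested). The median was 0.44, and none passed. Lgr5-CREPTKO mouse 2 was above mouse 1 for 15 of the 15 (53.4% of all genes tested). It was the highest of the 4 mice for 12 of the 15 (24.9%), and the genotypes overlapped for 9 (43.4%). Mgam, the maltase-glucoamylase that acts beside sucrase-isomaltase on starch products, was 116.11 and 116.81 FPKM in Lgr5-CREPTWT and 142.65 and 164.76 FPKM in Lgr5-CREPTKO mice. It was several times as abundant as Sis in each mouse, and both Lgr5-CREPTKO mice were above the controls, with a log2 fold change of 0.40 and an adjusted p of 0.0865 by limma's moderated test. Mep1a, a subunit of the protease meprin, was 10.17 and 6.60 FPKM against 12.53 and 13.29 FPKM, and Enpep, glutamyl aminopeptidase, was 8.27 and 9.87 FPKM against 10.73 and 16.68 FPKM. Their log2 fold changes were 0.62 and 0.54, with adjusted p of 0.156 and 0.225, also from limma. Anpep, aminopeptidase N, was 82.62 and 99.72 FPKM in Lgr5-CREPTWT and 71.48 and 127.23 FPKM in Lgr5-CREPTKO mice, with the Lgr5-CREPTKO values on both sides of the controls.

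Of the 21 fat absorption genes tested, 12 were negative and 9 positive, with a median of -0.07. Dbi, which binds long-chain acyl-CoA, was the most abundant, at 297.26 and 333.79 FPKM in Lgr5-CREPTWT and 257.59 and 205.33 FPKM in Lgr5-CREPTKO mice. Both Lgr5-CREPTKO mice were below the controls, with a log2 fold change of -0.45 and an adjusted p of 0.129 from limma. Dgat1, which makes triglyceride, was 75.26 and 69.55 FPKM against 68.65 and 85.76 FPKM, and its values overlapped. Fabp6, the ileal bile acid binding protein, was near the filter, at 0.23 and 0.56 FPKM against 0.79 and 0.94 FPKM.

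Of the 18 transporters tested, 11 were negative and 7 positive, with a median of -0.01. Slc7a9, the light chain of the cystine and basic amino acid transporter, was 8.62 and 8.92 FPKM in Lgr5-CREPTWT and 2.62 and 6.04 FPKM in Lgr5-CREPTKO mice, with a log2 fold change of -1.04 and an adjusted p of 0.164 by limma. Slc3a1, its heavy chain, was chosen after its values were seen, and it was 12.39 and 15.10 FPKM against 14.78 and 12.56 FPKM, with overlapping genotypes. Slc5a1, the sodium glucose cotransporter of the brush border, was 59.25 and 76.54 FPKM against 78.16 and 85.32 FPKM, for a log2 fold change of 0.28 and an adjusted p of 0.294. Slc7a8, a basolateral amino acid exchanger, was 28.60 and 32.89 FPKM against 36.13 and 30.74 FPKM. Slc51b, a subunit of the basolateral bile acid exporter, was 1.78 and 3.82 FPKM against 0.66 and 4.38 FPKM. Mouse 2 was the higher in each genotype, as for the absorption genes other than Apob.

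The secretory lineages differed more between the genotypes than the absorption genes did in median. By limma at the same threshold, 4 of 8 enteroendocrine markers (Chgb, Neurod1, Tac1 and Cck) and 1 of 7 goblet markers (Spink4) passed. All were lower in Lgr5-CREPTKO cells, where 1.01% of all genes tested were called lower and 0.127% higher. Without the filter, 0 of all genes were called in either direction, so none of these markers passed in that setting. None of the 5 tuft markers, 9 Paneth markers and 6 stem cell markers tested passed. The medians of the log2 fold changes were -1.41 for enteroendocrine, -1.14 for goblet, -1.16 for tuft, 0.39 for Paneth and 0.31 for stem cell markers. Lists were compared by these counts and medians, and the difference between lists was not tested.

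The profile that most of the absorption genes followed over the 4 mice can be described by the median of their centred log2 values, which was -0.25 and 0.28 in the Lgr5-CREPTWT mice and -0.49 and 0.30 in the Lgr5-CREPTKO mice. Fabp1 was nearest to it, with a root mean square distance of 0.10, and Vil1 was farthest, at 0.396, followed by Apob at 0.373. Among 9011 other genes that averaged 5 FPKM or more, the 5 nearest profiles were those of St3gal4, Psmb8, Xdh, Cyp3a13 and Reg3a, at distances from 0.0608 to 0.0882. St3gal4, a sialyltransferase, was 29.82 and 41.09 FPKM in Lgr5-CREPTWT and 23.28 and 43.51 FPKM in Lgr5-CREPTKO mice. Psmb8, an interferon-inducible subunit of the immunoproteasome, was 61.14 and 88.24 FPKM against 47.09 and 84.96 FPKM. Xdh, xanthine dehydrogenase, was 9.56 and 13.29 FPKM against 7.68 and 15.06 FPKM. In each of the 5 genes mouse 2 was above mouse 1 in both genotypes and Lgr5-CREPTKO mouse 1 was the lowest. This follows from how they were chosen. Cyp3a13, a cytochrome of drug metabolism, was 4.67 and 7.88 FPKM against 3.98 and 7.74 FPKM, and Reg3a, a secreted lectin, was 3.95 and 6.60 FPKM against 3.86 and 6.31 FPKM. The likeness rests on 4 mice.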

How the data were processed

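RNA-seq of sorted Lgr5-GFPhigh cells from 2 Lgr5-CREPTWT and 2 Lgr5-CREPTKO mice was analysed. The authors deposited a table of FPKM for each gene symbol and mouse. By the paper's methods, reads were aligned by Bowtie2 to the transcripts of GRCm38.p6 and genes were quantified by RSEM, and the submitters' processing notes also name HISAT and mm10. FPKM is relative to the library total and carries no counts, so absolute depth is unknown and intervals come from the spread between mice. A spreadsheet had rewritten 25 symbols as dates.

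Columns were assigned by their names, which match the sample titles. Genes averaging 0.5 FPKM or more (12621 of 18436) were compared as log2(FPKM + 0.5) with limma 3.58.1 in R 4.3.3 (intensity trend, Benjamini-Hochberg adjustment). This scale understates changes of low genes. The study applied the same threshold to a model of counts. The procedure was tested on simulated data with a fixed spread between mice, smaller than that of genes such as Apoa1 and Sis here. That test therefore does not show how the procedure performs on genes that vary as these do.

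The 10 genes, the gene lists and the tests were chosen with earlier results of these data known. Named genes are the 10 genes, Rprd1b, genes with adjusted p below 0.05 in each list, and the 5 nearest profiles. The 2 of each list with the largest absolute log2 fold change and the 2 with the highest mean are also named. Values of Apoc3, Apoa5, Slc3a1, Cd79a, Acta2 and Fgf15 are given outside these rules. Apart from the 4 related lists, the lists were of transcription factors, villus tip, ileal and colonocyte genes, and markers of stem, Paneth, goblet, enteroendocrine, tuft, immune, and stromal and endothelial cells. Python 3.11.15 with pandas 2.3.3 was used for promoter motifs, shared 50-base words and read steps. Pseudocount, filter, scaling, trend, robust fitting, small RNA genes, the replicate block and each mouse left out were varied. Some genes of the lists are counted in them but not reported here by name.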

Additional observations from a re-analysis of the deposited data

How the results depend on the processing

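None of the 10 absorption genes and none of the 71 related genes tested passed the threshold under any of the 14 alternatives. Vil1 and Apob were negative in each. Leaving out each mouse in turn reversed the sign of the other 8, with log2 fold changes from -0.52 to 0.94 for Apoa1, -0.63 to 0.46 for Apoa4, -0.30 to 0.31 for Fabp1, -0.54 to 0.10 for Fabp2, -0.70 to 0.24 for Rbp2, -0.95 to 0.078 for Alpi, -0.39 to 1.01 for Sis and -0.22 to 1.03 for Lct. The median of the 10 genes then ran from -0.54 to 0.24. Vil1 ran from -1.01 to -0.57 and Apob from -0.59 to -0.26. At an adjusted p below 0.05 alone, Myo1a passed after rescaling to TPM (0.0491), and Myo1d with robust fitting (0.0481) or without small RNA genes (0.0499), by limma.

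Across all genes tested, same-numbered mice did not deviate together (correlation -0.0266). A correlation over all genes cannot show whether they were linked in a way that touched only part of the genes. With the replicate block, the adjusted p of Vil1 was 0.0532 and no absorption gene passed. Over all genes, limma called 128 lower and 16 higher, 101 and 8 with the block, 4 and 0 without the trend, and 0 and 0 without the filter or with any mouse left out, and the counts at an adjusted p below 0.05 alone were 337 and 52, or 243 and 85 after rescaling to TPM. With 2 mice per genotype, the 95% intervals of 8 of the 10 genes included 0, and differences inside these intervals were not excluded.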

Other observations

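Genes that mark position along the villus and along the gut were measured beside the absorption genes. Of 7 villus tip genes, 5 were tested, with a median log2 fold change of -0.13, and none passed limma's threshold. Krt20, a keratin of differentiated epithelium, was 12.21 and 21.54 FPKM in Lgr5-CREPTWT and 7.10 and 23.19 FPKM in Lgr5-CREPTKO mice, again lowest in Lgr5-CREPTKO mouse 1 and highest in mouse 2. Egfr, the receptor for epidermal growth factor, was 12.67 and 10.27 FPKM against 14.33 and 15.14 FPKM, with both Lgr5-CREPTKO mice above the controls (log2 fold change 0.35, adjusted p = 0.173 from limma).

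Of 6 ileal genes, 4 were tested, with a median of -0.06. Fgf15, the enterokine of the ileum, was at or below 0.13 FPKM in every mouse, and Slc51a, the partner of Slc51b, was 5.94 and 6.07 FPKM in Lgr5-CREPTWT and 5.40 and 9.86 FPKM in Lgr5-CREPTKO mice. Of 7 colonocyte genes, 5 had a row and 2 were tested, with none past the threshold. Aqp4, a water channel, was 44.69 and 40.24 FPKM against 37.09 and 35.06 FPKM (log2 fold change -0.23, adjusted p = 0.190 from limma), and Slc26a3, a chloride bicarbonate exchanger, was 12.19 and 13.73 FPKM against 10.18 and 12.26 FPKM.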
